A study of Mus musculus with 4 samples.

Results

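ONX0914 blocks the proteasome subunits β5 and β5i. Its effect on gene expression was measured by comparing an array of J774.1 cells, an established mouse line of monocytes and macrophages, exposed for 4 hours to a 1 μM dose with an array of cells that received only the solvent, DMSO. The comparison of the ONX0914 array with the DMSO array uses 2 of the 4 arrays of the series, and the others hold RNA of J774.1 cells kept for the same time with 1 μM MG132 or 1 μM epoxomicin. The 2 arrays were chosen by their titles. On the ONX0914 array the treatment is labeled ONX-0912, whereas the title says ONX and the treatment protocol names the β5 and β5i inhibitor. With 1 array per condition the spread between cultures is unknown, and all arrays lay on 1 slide that was scanned once. The differences therefore lack replicates and carry no *P* values. Of 20144 genes with a probe, 13791 were well above background on at least 1 of both arrays and were compared.

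The proteasome degrades proteins that carry ubiquitin chains. Its 20S core has 3 kinds of catalytic β subunits, and cells of the immune system replace them with the inducible β1i, β2i and β5i, encoded by *Psmb9*, *Psmb10* and *Psmb8*, to form the immunoproteasome, which produces peptides for MHC class I. Macrophages express interferon-stimulated genes after interferons have activated STAT and IRF transcription factors. When undegraded proteins, oxidants or a lack of amino acids stress a cell, phosphorylation of eIF2α favors translation of the transcription factor Atf4 (the integrated stress response), Nrf2 escapes degradation and activates antioxidant genes, heat-shock factor Hsf1 activates chaperones, and p53, itself a substrate of the proteasome, activates genes that stop the cell cycle.

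The signal of a spot is its processed brightness in scanner units, and differences between the arrays are on the log2 scale after each array was scaled to its own 75th percentile, a signal of 1647 with DMSO and 1603 with ONX0914. A difference of 1 on this scale is 2-fold, and genes with at least this difference are called higher or lower below. Where a probe was not well above background on 1 array, the difference is a bound, given as “at least.” For probes with 10 spots and a signal well above background, the median SD over those spots was 0.0613 on the DMSO array and 0.0559 on the ONX0914 array on the log2 scale. It was 0.202 and 0.193 at signals under 50. Such spread reflects printing and scanning of 1 RNA sample, not cultures. Of 13 genes listed as macrophage markers, all 13 were well above background on both arrays and none was 2-fold different (range, −0.32 to 0.35). The summed signal of these markers was 416247 with DMSO and 385809 with ONX0914. The probes of some markers of other cells were also above background on the DMSO array, 6 of 11 for T cells and NK cells (summed signal, 21659 with DMSO and 20533 with ONX0914) and 2 of 7 for B cells (1212 and 743, nearly all of it from *Cd22*, which differed by −0.72). The same held for 4 of 10 markers of granulocytes and mast cells and 7 of 14 of fibroblasts, epithelium and endothelium, and no marker of another cell type was 2-fold different.

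Compared with DMSO, 451 of 13791 genes (3.27%) were at least 2-fold higher with ONX0914 and 193 (1.4%) at least 2-fold lower. The counts of genes higher with ONX0914 and genes lower with ONX0914 changed with the background correction. They were 192 and 2709 with normexp over all spots and 214 and 74 with normexp without outlier spots. Over all spots, the median normexp value was 379 on the DMSO array and 149 on the ONX0914 array. Without outlier spots, these medians were 149 and 150.2. A spot of the DMSO array had a signal minus local background of −4296.5. Separately from the background corrections, 359 genes were lower in the authors' value table. Of the higher genes, 296 were measured on both arrays and 155 had only a bound. Of the lower genes, 110 were measured on both and 83 had a bound. At 4-fold, 114 genes were higher and 20 lower. At 16-fold, 13 were higher and none lower. Over the 12993 genes measured on both arrays the differences had an SD of 0.44, and 90% of them lay between −0.55 and 0.65. Counted over all 24873 probes, named or not, 818 (3.29%) were higher and 404 (1.62%) lower, including 245 and 170 of 6907 probes that could not be named.

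**Figure D1:**
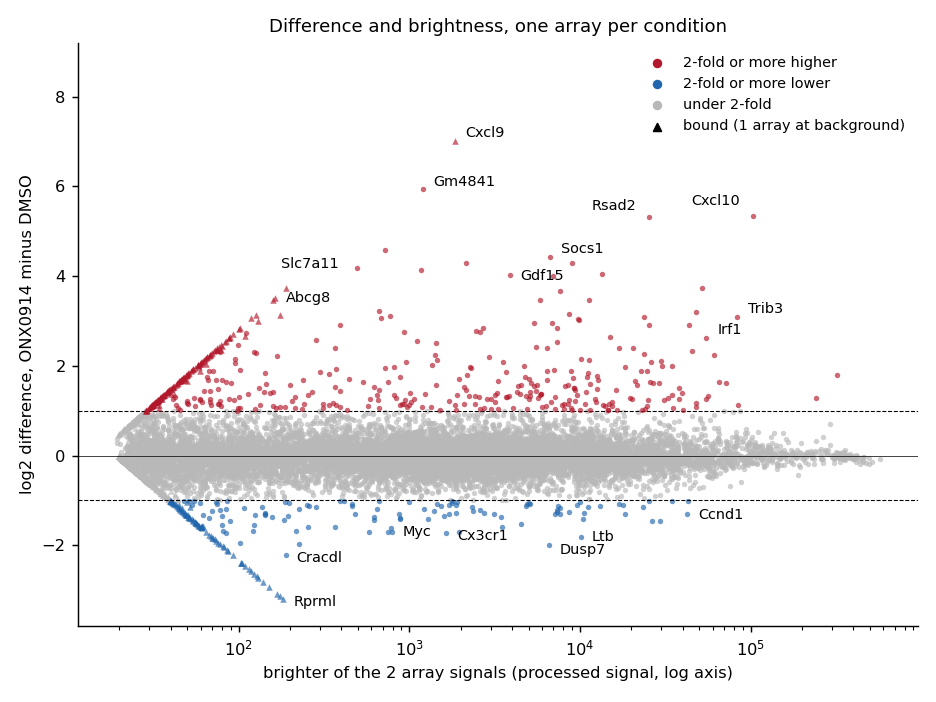
Each point is 1 of the 13791 genes compared, with the brighter of its DMSO and ONX0914 signals on the x axis (log scale) and the log2 difference (ONX0914 minus DMSO) on the y axis. Red genes were at least 2-fold higher (451), blue genes at least 2-fold lower (193), triangles are bounds, and the dashed lines mark 2-fold.

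The share of genes called differed with brightness and with place on the array. The brighter of a gene's signals had a median of 313 among higher genes and 123 among lower genes, against 1422 among all genes compared. When the array surface was divided into a 4 by 4 grid, the share of dim probes (brighter signal under 200) that were higher with ONX0914 ranged from 1.75% to 12.3% over the 16 blocks. It was 9.26% in the middle of the array (column blocks 2 and 3 of row blocks 2 to 4) and 2.73% elsewhere. The middle was chosen after the data were seen. Its blocks ranged from 3.48% to 12.3%, and blocks elsewhere reached 5.28%. For probes with a signal of 1000 or more, the shares that were higher were 2.57% in the middle and 2.08% elsewhere. Dim probes that were lower with ONX0914 made up 0.46% to 6.29% of the blocks. The largest of these shares was in a block outside the middle. The share of dim probes that were lower was 3.35% in the middle and 3.03% elsewhere. Dim probes at least 2-fold brighter on the ONX0914 array than on the MG132 array made up 5.99% of the middle and 1.18% of the rest, whereas between the MG132 and DMSO arrays the shares were 10.3% and 8.95%. The middle held 38.1% of the genes compared, 55.4% of the higher genes and 73.5% of the higher genes that had only a bound. Whether the place of a probe had a part in its call was not tested. Among the 7650 genes with a signal of at least 1000 on 1 of both arrays, 186 (2.43%) were higher and 52 (0.68%) lower, and outside the middle of the array 201 of 8534 genes (2.36%) were higher and 110 (1.29%) lower.

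**Figure D2:**
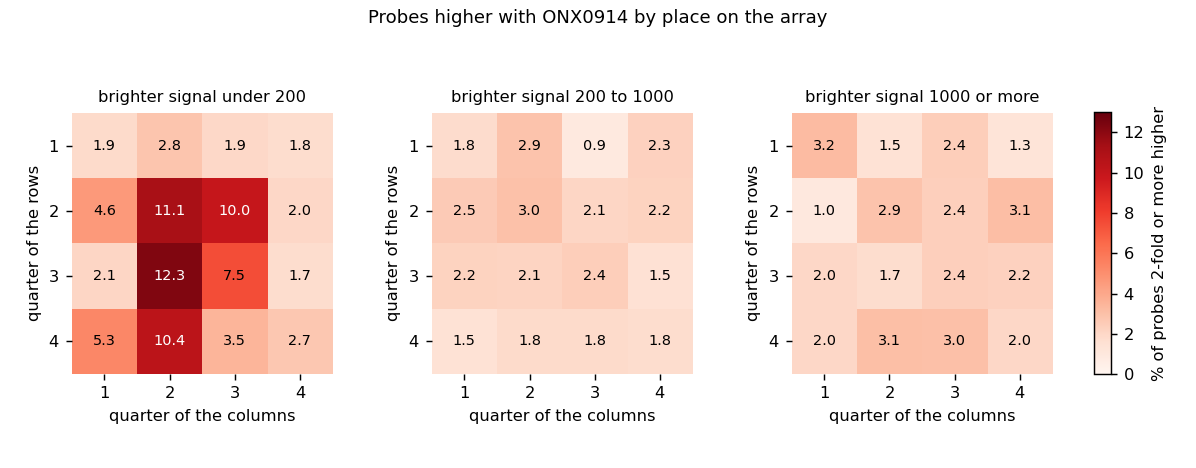
Percentage of probes at least 2-fold higher with ONX0914 in each block of a 4 by 4 grid over the array, for probes whose brighter signal was under 200 (left), 200 to 1000 (center) or 1000 or more (right). The share of dim probes was up to 12.3% in the middle blocks, while the shares of probes of 1000 or more lay between 0.98% and 3.20%.

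Of the 15 largest increases measured on both arrays, 9 were on the lists of antiviral interferon-stimulated genes or of guanylate-binding proteins and immunity-related GTPases. These lists held 35 and 21 of the 13791 genes compared, and they were chosen with earlier results of these data known. *Cxcl10*, a chemokine that attracts T cells through the receptor Cxcr3, had a signal of 2622 with DMSO and 102756 with ONX0914, a difference of 5.33 (40.3-fold). *Rsad2*, which encodes the antiviral enzyme viperin, had signals of 659.6 and 25519.8 (difference, 5.31; 39.8-fold). *Cxcl9*, another ligand of Cxcr3, was not well above background with DMSO at 7.89 and reached 1849 with ONX0914, and was therefore at least 129-fold higher. Of 35 antiviral interferon-stimulated genes compared, 26 were higher with ONX0914, none was lower, and all 35 differences were above 0 (median, 1.33; median of all genes compared, −0.01). Of the 26, 24 had a signal of at least 1000. The probes of *Cxcl9*, *Cxcl10* and *Rsad2* lay in the middle of the array, and each had a signal above 1000 with ONX0914. In RNA of a whole culture, more cells that express a gene and more of its RNA per cell cannot be told apart. The same holds for fewer cells and less RNA per cell.

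**Figure D3:**
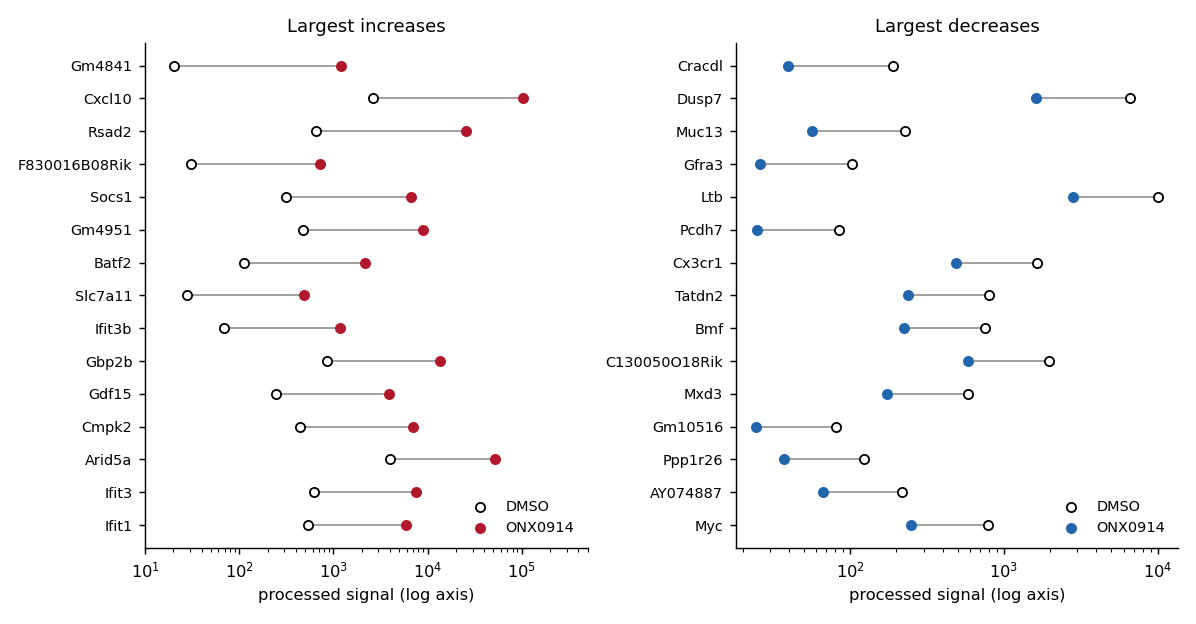
Processed signals (log axis) on the DMSO array (open circles) and on the ONX0914 array (filled circles) of the 15 most increased and 15 most decreased genes measured on both arrays. The increases range from 3.47 to 5.93 and the decreases from −1.62 to −2.21 on the log2 scale.

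The Ifit genes, whose proteins bind viral RNA, differed by 4.13 (*Ifit3b*), 3.67 (*Ifit3*), 3.47 (*Ifit1*) and 2.39 (*Ifit2*). The signal of *Ifit1*, for example, was 541 with DMSO and 5851 with ONX0914, and that of *Ifit2* was 1257 and 6431. *Cmpk2*, a mitochondrial nucleotide kinase that lies next to *Rsad2* in the genome, had signals of 444 and 6926 (16.0-fold). *Isg15*, a ubiquitin-like modifier, had signals of 3996 and 20369.6 (5.24-fold), and *Usp18*, the protease that removes Isg15 from proteins, 6335 and 26013 (4.22-fold). *Oasl1* had signals of 2486 and 15034 (6.21-fold). The 9 members under 2-fold included the RNA sensors *Ifih1* (0.88) and *Ddx58* (0.94), the kinase *Eif2ak2* (0.67), *Bst2* (0.51) and *Samd9l* (0.33).

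The guanylate-binding proteins and immunity-related GTPases, which attack vacuoles that hold pathogens, formed the list with the highest median. Of 21 members, 20 were higher with ONX0914 and *Gbp10* differed by 0.72 (median, 2.83). The largest of all differences measured on both arrays was that of *Gm4841*, with signals of 20.2 and 1202 (61.1-fold). Its DMSO signal was dim, near the lowest signal well above background on that array (14.7). The related genes *F830016B08Rik*, also dim with DMSO (31.0 and 724), and *Gm4951* differed by 4.59 and 4.30. *Gbp2b* had signals of 846 and 13504 (4.04), and its other probe gave 4.01. *Tgtp2* had signals of 5349.9 and 47784 (3.20), and *Igtp*, whose probe was printed 10 times, 3478 and 25502 (2.91, with a standard error over spots of 0.0328). The probes of *Iigp1* disagreed in size, at 2.83 and 5.23. Whether probes of these closely related genes also bound the RNA of their paralogs was not tested. All 14 members with a signal of 1000 or more were higher.

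The promoters of several of these genes hold the letters of elements that IRF and STAT factors are known to bind. The windows below, taken from RefSeq with the coordinates of GRCm38.p6, run from 250 bases before to 50 after the start of the gene and are written along the gene's strand. They were picked for display from genes with large increases or, as *Irf1* and *Socs1*, regulators of the response, and only windows that hold one of these elements are shown. Capitals mark GAAANNGAA (the core of the interferon-stimulated response element, ISRE) or TTCNNNGAA (the gamma-activated site, GAS, bound by STAT factors), searched on both strands. They can overlap each other, as they can the kappaB element.
Cxcl10, chr5:92348840-92349139, minus strand: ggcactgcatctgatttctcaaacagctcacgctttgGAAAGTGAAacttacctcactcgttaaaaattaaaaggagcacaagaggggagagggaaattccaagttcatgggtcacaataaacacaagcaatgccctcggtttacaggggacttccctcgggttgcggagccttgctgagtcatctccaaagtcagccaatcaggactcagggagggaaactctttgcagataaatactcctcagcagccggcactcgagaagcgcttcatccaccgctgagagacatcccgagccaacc
Cxcl9, chr5:92328030-92328329, minus strand: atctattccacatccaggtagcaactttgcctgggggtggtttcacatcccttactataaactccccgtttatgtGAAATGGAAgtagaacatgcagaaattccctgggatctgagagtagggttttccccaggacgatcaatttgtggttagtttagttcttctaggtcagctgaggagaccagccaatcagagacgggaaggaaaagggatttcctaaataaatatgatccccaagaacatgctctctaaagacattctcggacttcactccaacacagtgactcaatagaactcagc
Rsad2, chr12:26456403-26456702, minus strand: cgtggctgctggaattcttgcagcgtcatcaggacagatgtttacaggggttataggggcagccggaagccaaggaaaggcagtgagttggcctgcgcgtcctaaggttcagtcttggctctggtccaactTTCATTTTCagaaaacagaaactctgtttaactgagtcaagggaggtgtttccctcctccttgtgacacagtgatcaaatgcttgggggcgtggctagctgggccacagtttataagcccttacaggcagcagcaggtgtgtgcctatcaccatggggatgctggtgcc
Gbp2b, chr3:142594597-142594896, plus strand: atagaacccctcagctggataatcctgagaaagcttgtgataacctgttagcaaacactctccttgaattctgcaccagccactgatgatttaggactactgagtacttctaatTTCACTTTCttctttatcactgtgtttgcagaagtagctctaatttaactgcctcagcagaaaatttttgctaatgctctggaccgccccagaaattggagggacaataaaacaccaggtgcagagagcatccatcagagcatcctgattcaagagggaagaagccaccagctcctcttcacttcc
Gbp2, chr3:142620413-142620712, plus strand: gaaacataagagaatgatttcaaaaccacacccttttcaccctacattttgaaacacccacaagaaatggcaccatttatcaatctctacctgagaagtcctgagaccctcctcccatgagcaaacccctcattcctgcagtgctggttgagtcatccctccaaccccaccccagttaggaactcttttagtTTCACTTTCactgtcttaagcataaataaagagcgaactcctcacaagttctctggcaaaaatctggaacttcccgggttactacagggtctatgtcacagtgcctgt
Socs1, chr16:10785487-10785786, minus strand: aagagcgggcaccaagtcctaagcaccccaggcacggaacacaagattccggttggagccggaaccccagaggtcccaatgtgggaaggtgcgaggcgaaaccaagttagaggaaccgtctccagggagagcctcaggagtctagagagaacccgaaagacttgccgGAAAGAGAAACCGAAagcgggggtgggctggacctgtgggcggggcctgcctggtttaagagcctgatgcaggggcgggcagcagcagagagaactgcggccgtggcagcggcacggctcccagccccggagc
Irf1, chr11:53769764-53770063, plus strand: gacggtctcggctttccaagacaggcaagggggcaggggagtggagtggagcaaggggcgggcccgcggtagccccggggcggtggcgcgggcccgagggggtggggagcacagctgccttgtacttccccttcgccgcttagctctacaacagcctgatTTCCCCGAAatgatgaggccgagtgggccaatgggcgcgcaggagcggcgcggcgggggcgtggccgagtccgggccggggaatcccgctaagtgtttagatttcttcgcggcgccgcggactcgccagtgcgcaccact

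The ISRE letters began 213 bases before the start of *Cxcl10*, 175 before that of *Cxcl9*, 119 before that of *Rsad2*, 136 before that of *Gbp2b* and 58 before that of *Gbp2*. The window of *Socs1* held 2 overlapping matches, 83 and 77 bases before the start, and that of *Irf1* held the GAS letters 90 bases before it. *Irf1* has 2 windows in the table, and the other held neither. Among genes compared that have a window, the ISRE letters were present in 9.07% (of 10996), in 19.4% of those higher with ONX0914 (of 341) and in 14.1% of those lower (of 142). Among genes with a single window, the shares were 7.7% of genes compared and 19.9% of higher genes. The letters were present in 8.56% of all 32851 windows of the table. Windows of 17 of 27 antiviral interferon-stimulated genes and of 10 of 11 guanylate-binding proteins and immunity-related GTPases held them. The GAS letters were present in 8.79% of genes compared, 15.8% of higher genes and 14.8% of lower genes. A match is a description of the sequence, and binding was not measured.

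Regulators of interferon and cytokine signaling were higher for some members only. *Irf1*, a transcription factor of interferon-stimulated genes, had signals of 9157 and 55069.6 (2.63), and *Irf7*, which drives interferon-α genes, 596 and 2264 (1.97). The other 6 of 8 interferon regulatory factors differed by −0.24 to 0.83. *Socs1*, a feedback inhibitor of JAK kinases, had signals of 316 and 6654 (4.43; 21.6-fold). The related feedback genes *Socs3*, with signals of 2841 and 23634, and *Cish*, with 714 and 5371, differed by 3.10 and 2.95, whereas *Socs2* and *Socs4* to *Socs7* lay between 0.09 and 0.62. *Stat2*, which forms part of the interferon-activated complex ISGF3, had signals of 4617 and 12638 (1.49). *Batf2*, a transcription factor induced by interferon, had signals of 113 and 2161 (4.29).

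No interferon gene was higher. Of 15 interferon genes with a probe, 9 were compared, and the 7 measured on both arrays differed by −0.11 to 0.36. *Ifna11* was dim with DMSO (31.8) and not well above background with ONX0914 (15.9). *Ifnb1*, the gene of interferon-β, had a signal of 71.3 with DMSO and was not well above background with ONX0914 at 8.08, at least 3.6-fold lower. Signals of the other interferon genes did not exceed 229 on either array.

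**Figure D4:**
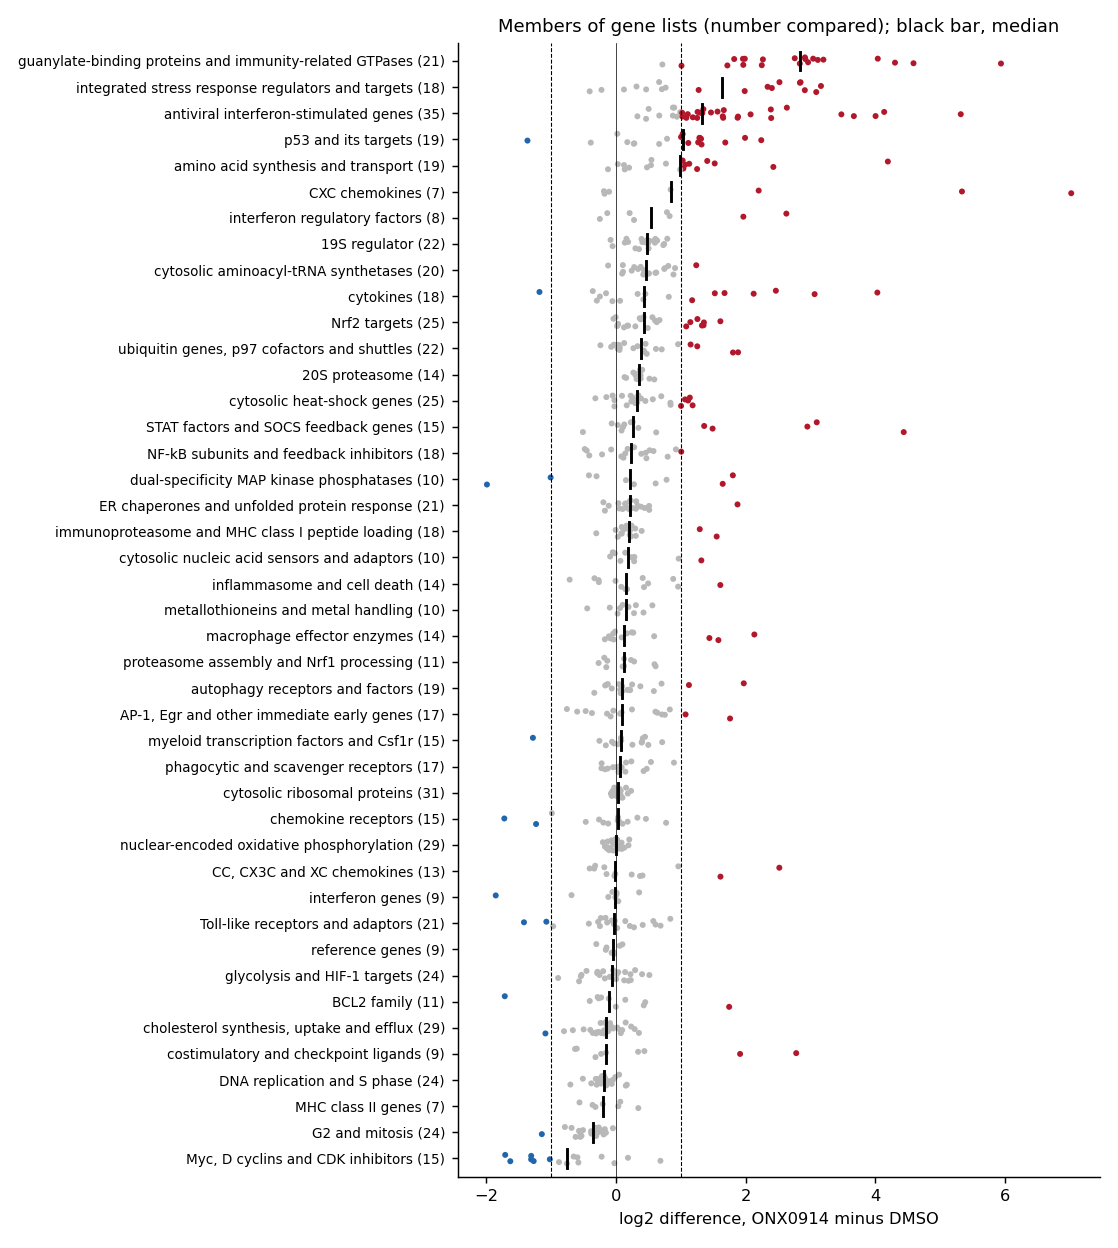
Each point is a member of a gene list, placed by its log2 difference (ONX0914 minus DMSO), with the number of members compared in parentheses and the median as a black bar. Red members were at least 2-fold higher and blue members at least 2-fold lower, and 4 lists had a median of 1 or more.

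Some chemokine and cytokine genes were higher, where 3.27% of all genes compared were higher and 1.4% lower. Beside *Cxcl9* and *Cxcl10*, the neutrophil chemokine *Cxcl2* had signals of 652 and 2919 (2.20), *Ccl8* 257 and 1434 (2.52), and *Ccl7* 24159.8 and 71929 (1.61). These were 5 of 20 chemokines compared, and none was lower. The bright chemokine genes *Ccl3*, *Ccl4*, *Ccl2* and *Pf4* differed by 0.25, 0.37, 0.41 and −0.18. Among 18 cytokines, 7 were higher and 1 lower. *Gdf15*, a cytokine of cell stress, had signals of 244 and 3871 (4.03; 16.3-fold), and *Il6* 84.4 and 687 (3.06; 8.36-fold). *Osm*, with signals of 343 and 1457, differed by 2.12, and *Csf1*, the macrophage growth factor, with 2055 and 6389, by 1.68 (standard error over spots, 0.0233), although the other probe of *Csf1* gave 0.55. *Csf2* had signals of 107.01 and 46.2 (−1.17). *Tnf* and *Il1b*, both printed 10 times, differed by −0.35 and −0.05, with standard errors over spots of 0.0205 and 0.0337. *Tnf* had signals of 11606 and 8844.

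Of the chemokine receptors, 2 were lower and none was higher. The fractalkine receptor *Cx3cr1* had signals of 1642 and 487 (−1.71; other probe, −1.92), and *Cxcr3* had 1403 and 584 (−1.23; 2.34-fold lower). The other 13 of 15 chemokine receptors were within 2-fold, from −0.98 (*Ccr1*) to 0.78 (*Ccrl2*). Of 21 Toll-like receptors and adaptors, *Tlr6* (884 and 323; −1.41) and *Tlr1* (1769.9 and 822; −1.07), the partners of Tlr2 in sensing bacterial lipopeptides, were lower, and *Tlr2* and *Tlr4* differed by 0.42 and 0.02. Of 18 NF-kB subunits and feedback inhibitors, only *Tnip3* reached 2-fold (1.01), where 3.27% of all genes were higher, while the subunits *Rela*, *Nfkb1*, *Nfkb2* and *Relb* lay between −0.07 and 0.28 and the inhibitor *Nfkbia* differed by 0.47. The costimulatory receptor *Cd40* (1911 and 7016; 1.92) and *Cd274*, which encodes the checkpoint ligand PD-L1 (366 and 2446; 2.78), were higher, whereas *Cd80*, *Cd83* and *Cd86* differed by −0.63, −0.31 and 0.44. Among macrophage effector enzymes, *Ptgs2* (cyclooxygenase-2; 2638 and 11276; 2.13), *Acod1* (the enzyme that makes itaconate; 1.58) and *Mmp13* (1.44) were higher, and *Nos2* differed by 0.09.

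The integrated stress response list had a median of 1.63, with 10 of 18 genes higher and none lower. *Ddit3*, which encodes the transcription factor CHOP, had signals of 998 and 8684 (3.16), and the pseudokinase *Trib3* 10086 and 83443 (3.09). *Atf3* had 5919 and 43357 (2.91), and *Atf4* itself 102412 and 241575 (1.28; other probe, 1.48). *Gadd45a*, *Sesn2*, *Ppp1r15a*, which encodes the phosphatase subunit that reverses eIF2α phosphorylation, and *Ddit4*, an inhibitor of mTORC1, differed by 2.85, 2.52, 2.40 and 2.34. *Vegfa* was not well above background with DMSO and was at least 7.14-fold higher at the dim signal of 102. It was not well above background with MG132 either (8.63) and had a signal of 25.4 with epoxomicin. The genes of the eIF2α kinases *Eif2ak1*, *Eif2ak3* and *Eif2ak4* differed by 0.13, −0.40 and −0.22. The letters TGATGNAAT, 1 form of the C/EBP-ATF composite element, were searched on both strands, and forms with another last letter were not searched. The letters TGATGNAAT were present in the promoters of 1 of 18 genes of this list with a window. Their share was 0.6% of genes compared and 0.965% of all windows. The windows of neither *Ddit3* nor *Trib3* held these letters.

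Of 19 genes of amino acid synthesis and transport, 9 were higher and none lower (median, 0.99). *Slc7a11*, the cystine importer, had a dim signal with DMSO and the largest difference of the list, with its probe in the middle of the array (27.7 and 491; 4.19). The glycine transporter *Slc6a9* had 1052 and 5507 (2.43; other probe, 2.36), and *Gpt2*, *Cth*, *Asns* (asparagine synthetase) and *Mthfd2* differed by 1.52, 1.41, 1.25 and 1.13. Genes of serine synthesis were under 2-fold, with *Phgdh* at 0.03, *Psat1* at 0.55 and *Psph* at −0.12. Of 20 cytosolic aminoacyl-tRNA synthetases, 19 were above 0 and only *Cars* reached 2-fold (10828 and 24899.9; 1.24), with a median of 0.46.

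Of p53 and 18 of its targets, 11 were higher and 1 lower (median, 1.03). *Mdm2*, the ubiquitin ligase of p53, had signals of 13352 and 61435 (2.24), and *Cdkn1a*, the cell cycle inhibitor p21, 8955 and 34658 (1.99; standard error over spots, 0.0242; other probe, 1.68). The proapoptotic genes *Bbc3* and *Pmaip1* differed by 1.69 and 1.30 and the death receptor *Fas* by 1.32. *Sesn1* was the one lower member (3427 and 1301; −1.36), and *Bax*, *Trp53* and *Ei24* differed by 0.29, 0.18 and 0.02. Among 11 genes of the BCL2 family, *Bmf* was lower (756 and 225; −1.71), and *Bik*, at the dim signals of 20.0 and 65.2, was higher (1.75, but −0.89 after normexp background correction over all spots).

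Several genes of cell cycle entry were lower. Of 15 genes listed as Myc, D cyclins and CDK inhibitors, 6 were lower and none higher (median, −0.75). *Myc* had signals of 785 and 248 (−1.62), *Mxd3*, of the same network, 581 and 174 (−1.70), *Ccnd1* (cyclin D1) 42589 and 16822 (−1.30) and *Ccne1* (cyclin E1) 8647 and 3507 (−1.26; other probe, −1.29). The CDK inhibitor *Cdkn2d* was lower as well (−1.30), although it opposes the cyclins. All 24 genes of G2 and mitosis were below 0 (median, −0.34), and only *Plk1*, a mitotic kinase, reached 2-fold (23435 and 10369.7; −1.14). Of 24 genes of DNA replication and S phase, 21 were below 0 and none reached 2-fold (median, −0.18).

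Lists of protein quality control had small medians with a few genes of large difference. Of 22 ubiquitin genes, p97 cofactors and shuttles, 4 were higher (median, 0.38), led by *Zfand2a*, a proteasome-associated stress gene (6914 and 24839.6; 1.88). Of 25 cytosolic heat-shock genes, 5 were higher and none exceeded 1.18 (*Bag3*, 3064 and 6778), and *Dnajb1*, *Hspb1* and *Hspa8* differed by −0.05, −0.02 and 0.10. The autophagy receptor *Sqstm1* (p62) had signals of 4801 and 18332 (1.97), while 17 of 19 autophagy genes were under 2-fold. Of 21 genes of ER chaperones and the unfolded protein response, *Herpud1* alone was higher (6425 and 22943; 1.88), with *Hspa5* (BiP) at 0.51 and *Xbp1* at 0.21.

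Of 25 Nrf2 targets, 7 were higher and none lower (median, 0.43). *Osgin1* had signals of 1749 and 5202 (1.61), *Gclm*, a subunit of the first enzyme of glutathione synthesis, 1283 and 3201 (1.36), *Srxn1* 13916 and 34574 (1.35) and *Hmox1* (heme oxygenase 1) 8672 and 20191 (1.26; other probe, 1.1). The ferritin genes *Fth1* and *Ftl1* differed by 0.02 and 0.00. The letters TGACNNNGC of the antioxidant response element, searched on both strands, were present in the promoters of 11 of 21 genes of this list that have a window, but not in that of *Osgin1*. They were present in 16.4% of genes compared, 17% of higher genes and 12.4% of all windows.

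The genes of the proteasome itself were under 2-fold. All 14 genes of the 20S core were above 0, between 0.14 (*Psma2*) and 0.59 (*Psma5*), with a median of 0.36. Of 22 genes of the 19S regulator, 20 were above 0 (median, 0.49; largest, *Psmc6* at 0.79). *Psmb5*, which encodes β5, had signals of 129247 and 140623 (0.16), and *Psmb8*, which encodes β5i, 21411 and 22120.5 (0.09). *Psmb9* and *Psmb10* differed by 0.17 and 0.09. On the list of the immunoproteasome and peptide loading, 2 of 18 genes were higher, *Nlrc5*, the transactivator of MHC class I genes (2865 and 8191; 1.55), and the peptide transporter *Tap1* (1575 and 3760.5; 1.29; standard error over spots, 0.0244). *B2m*, *H2-K1* and *H2-D1* differed by 0.22, 0.22 and 0.23.

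Lists of basic cell functions, which hold mostly bright genes, had small differences. All 31 cytosolic ribosomal protein genes lay between −0.07 and 0.24, and all 29 nuclear-encoded genes of oxidative phosphorylation between −0.20 and 0.21. Of 9 reference genes, *Gusb* was farthest from 0 (−0.30), and *Hprt* and *Gapdh* differed by −0.03 and −0.06.

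The 15 largest decreases among genes measured on both arrays were smaller than the 15 largest increases. *Cracdl*, at the dim signals of 189 and 39.6, differed most (−2.21). *Dusp7*, a phosphatase of ERK, had signals of 6604 and 1627 (−1.98; 3.95-fold lower), and the ERK phosphatase *Dusp6* was at the threshold (43066 and 20932; −1.0), whereas *Dusp1* (638 and 2168; 1.80) and *Dusp8* (1.65) were higher. *Ltb*, which encodes lymphotoxin-β, had signals of 10103 and 2799.9 (−1.81). *Muc13*, *Gfra3*, *Pcdh7*, *Gm10516*, *Ppp1r26* and *AY074887* had signals of 80.9 to 227 with DMSO and of 24.4 to 66.7 with ONX0914, and the other probe of *AY074887* gave −0.12. *C130050O18Rik* and *Tatdn2* differed by −1.70 and −1.71.

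Of the increases outside the lists, *Arid5a*, an RNA-binding protein that stabilizes *Il6* mRNA, had signals of 3973 and 51646 (3.74; 13.4-fold). In all, 130 of the 451 higher genes and 19 of the 193 lower genes were on one of 48 lists, and 321 higher genes were on none. The lists held 784 of the 13791 genes compared, and they were chosen with earlier results of these data known. The largest bounds after *Cxcl9* were dim, with *Serpina3f* at 190, *Abcg8* at 163, *Rarres2* at 159 and *Art4* at 126 with ONX0914, each at least 8.80-fold higher. *Serpina3f* had signals of 697 with MG132 and 1245 with epoxomicin. *Abcg8* (9.84 and 4.13), *Rarres2* (16.8 and 5.16) and *Art4* (12.7 and 4.12) were not well above background with either. The probes of *Serpina3f*, *Abcg8* and *Art4* lay in the middle of the array, where more dim probes were called. The largest bounds in the other direction, *Rprml*, *Olfr606*, *Lca5l*, *Frk* and *Crb2*, had signals of 139 to 182 with DMSO and were not well above background with ONX0914, and the other probe of *Lca5l* differed by −0.55.

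Another probe of the same gene gave a second reading of some calls from the same RNA. Of 61 higher genes with another probe measured on both arrays, that probe was at least 2-fold higher for 42, higher by less for 17 and not higher for 2. Of 17 lower genes, it was at least 2-fold lower for 5 and lower by less for 12. Among 3245 genes with neither call, the other probe was at least 2-fold higher for 32 and lower for 17.

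ONX0914, MG132 and epoxomicin were applied at the same dose and for the same time, and each is set against the same DMSO array, so all 3 differences share any error of the DMSO array. Genes higher with ONX0914 had a median difference of 1.48 with ONX0914, 2.11 with MG132 and 2.25 with epoxomicin. Genes lower with ONX0914 had −1.31, −1.47 and −1.45. These genes were chosen by their difference with ONX0914. The medians with MG132 and epoxomicin leave out genes that could not be compared with DMSO on those arrays, so the 3 medians cover unlike sets of genes. The antiviral interferon-stimulated genes had medians of 1.33, 2.28 and 2.57 in this order, and the integrated stress response list 1.63, 1.68 and 1.28. For the 20S core the medians were 0.36, 0.20 and 0.09, and for immediate early genes 0.09, 0.78 and 1.15. With 1 array each, none of these differences between inhibitors could be tested.

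**Figure D5:**
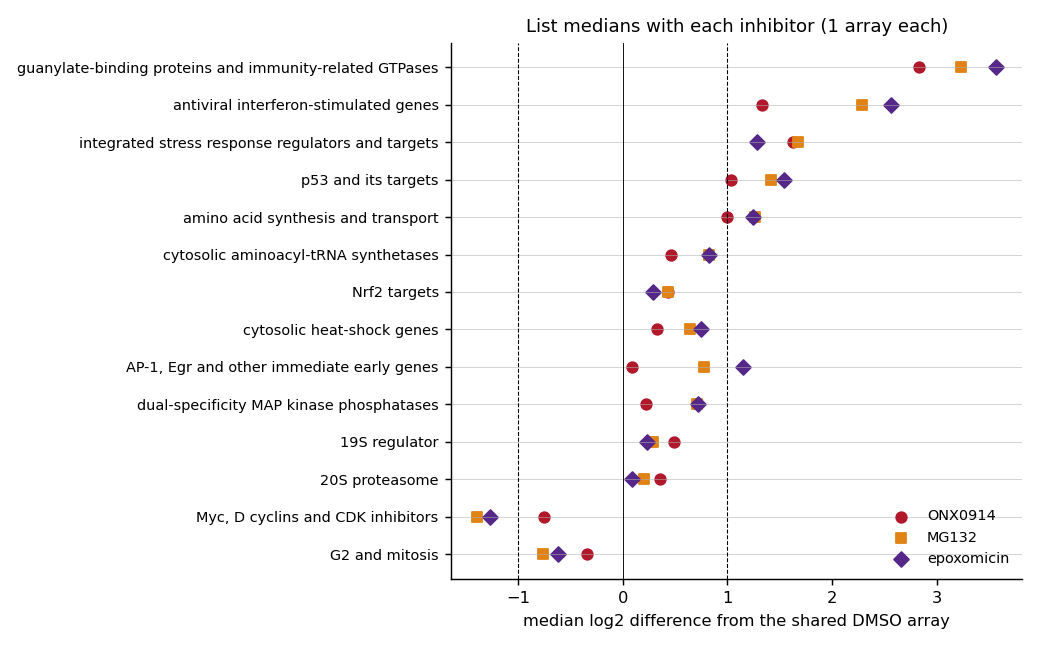
Median log2 difference from the shared DMSO array of 14 gene lists with ONX0914 (circles), MG132 (squares) and epoxomicin (diamonds), 1 array each. For guanylate-binding proteins and immunity-related GTPases the medians are 2.83, 3.24 and 3.57.

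Set against the other inhibitors directly, 128 of 13392 genes were at least 2-fold brighter with ONX0914 than with both, and 242 at least 2-fold dimmer. *Socs1* was the only one of the 83 genes higher with ONX0914 and 2-fold above both that had a signal of 1000 or more on the DMSO or ONX0914 array, with a signal of 6654 against 316 (DMSO), 2311 (MG132) and 3236 (epoxomicin). Of these 83, 67 had their probe in the middle of the array. *Ccnd1* was lower with ONX0914 (16822) than with DMSO (42589) but brighter than with MG132 (5992) or epoxomicin (6037). *Gdf15*, at 12898 with MG132 and 12340 with epoxomicin, was dimmer with ONX0914 at 3871 (differences on the log2 scale, −1.88 and −1.61), and *Il1b* had 558 with MG132, 1008 with epoxomicin and 222 with ONX0914. *Bcl2l11*, which encodes the proapoptotic Bim, had 285 with ONX0914, near the 217 of DMSO, against 1304 with MG132 and 2499 with epoxomicin. No gene was 2-fold higher with ONX0914 and 2-fold lower with both other inhibitors, or the reverse.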

How the data were processed

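Total RNA of J774.1 cells was labeled with Cy3 and hybridized by the authors to a 1-color Agilent mouse design (026655, annotated on mm9, per the file headers), although the study's methods name a human array. The authors deposited the scanner output of Feature Extraction 10.7.1.1, whose processed, background and median signals are intensity values, with calls of 0 or 1 for spots well above background, saturated or outlying. The deposited value table is on the log2 scale, apparently relative to each probe's median over the arrays, and it served as an alternative.

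Control spots and outlier spots were left out, and spots of 1 probe were averaged. The log2 of the processed signal minus that of the array's 75th percentile over all non-control spots was used. There were 43020 non-control spots per array, 60.3% of them well above background with ONX0914 and 63.1% with DMSO, and none was saturated. The number of arrays limits the precision, and as the conditions had 1 array each no test was made. Accessions matched RefSeq (GRCm38.p6) for 26581 of 39429 probes (67.4%), giving 20144 genes. Each gene was represented by its brightest probe (mean of the 4 arrays). A gene was compared if well above background on at least 1 of both arrays, the other signal being raised to the lowest signal well above background on its array (14.7 with DMSO and 19.3 with ONX0914), and 188 genes whose direction this turned were left out. The promoter windows come from RefSeq (GRCm38.p6).

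Genes named were the 15 largest increases and decreases among genes measured on both arrays, the 5 largest bounds in each direction, up to 6 called and 3 other members of each list, genes that the study names for this experiment, and *Psmb5*, *Psmb8*, *Psmb9*, *Psmb10*, *Il6*, *Il1b*, *Tnf* and *Cxcr3*. A further 35 list members, such as *Atf4*, *Csf2*, *Igtp* and *Usp18*, were added after their values were seen. Some genes that this rule takes in are not reported here. The members and lists were chosen with earlier results of these data known. The steps were tested on simulated data. Alternatives were normexp background correction (limma 3.58.1, R 4.3.3; offset 50), quantile, median and no scaling, the authors' table, averaging all probes of a gene, a 4-fold threshold and stricter brightness. The percentile over probes, a signal of at least 1000 and leaving out the middle of the array were chosen after seeing the data. Other steps used Python 3.11.15 with matplotlib 3.10.9 for plots, scipy 1.17.1, pandas 2.3.3 and numpy 2.4.6.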

Additional observations from a re-analysis of the deposited data

How the results depend on the processing

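Quantile normalization, a shift to the median, no scaling, the percentile over detected probes and the percentile over all probes kept every count of genes and probes within 1.5 times. The counts of genes higher with ONX0914 and genes lower with ONX0914 were 192 and 2709 with normexp over all spots, 214 and 74 with normexp without outlier spots, 296 and 110 when both arrays had to be well above background, 238 and 87 for brighter probes, 114 and 20 at 4-fold, 186 and 52 at a signal of 1000 or more, and 201 and 110 without the middle of the array. Lower genes were 359 with the authors' value table and 347 with the signal itself in place of the bound. The counts of probes higher with ONX0914 and probes lower with ONX0914 were 265 and 6310, 323 and 125, 513 and 223, 365 and 159, 190 and 41, 263 and 72, and 353 and 239 under the first 7 settings in the same order, and 852 and 823 probes were lower with the authors' table and the signal itself. The stricter settings compare fewer genes or ask for more. The DMSO array had a spot whose signal minus local background was −4296.5, and its median normexp value was 379 over all spots and 149 without outlier spots (ONX0914, 149 and 150.2). The median of all genes was −0.17 with normexp over all spots and within 0.06 of 0 otherwise. Under it *Il1rn* (−0.69), *Ubxn4* (−1.0), *Hspa2* (−0.28) and *Bik* (−0.89) turned direction, and of 123 named genes with a call 109 still passed 2-fold. Of 129 such genes 114 passed with normexp without outlier spots, and 125 to 129 under the scalings, the authors' table, the mean over probes and the signal itself. At 4-fold, 1 list in place of 4 had a median at the threshold, and 27.0% of higher genes in place of 19.4% held the ISRE letters. No paired analysis was possible because each condition had 1 array. The slide as a block was not run because all arrays lay on 1 slide. Dim signals limit the calls, and the cause of the higher share of dim calls in the middle of the array was not tested.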

Other observations

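Lists not described above are given beside the shares of all genes compared, 3.27% higher and 1.4% lower. Of 17 immediate early genes, 2 were higher with ONX0914, among them *Zfp36*, which encodes an mRNA-destabilizing protein (signals of 268 with DMSO and 884 with ONX0914; difference, 1.76). The exonuclease *Trex1* (23183 and 56278; 1.32) was the only higher gene of 10 cytosolic nucleic acid sensors and adaptors, and *Casp4*, which encodes the caspase that senses lipopolysaccharide in the cytosol (9831 and 29228; 1.61), the only one of 14 genes of inflammasome and cell death. Among 15 myeloid transcription factors and *Csf1r*, *Maf* was lower (2724 and 1096; −1.27). Of 29 genes of cholesterol synthesis, uptake and efflux, 21 were below 0, and *Hmgcs1* alone reached 2-fold (17028 and 7829; −1.08). None of 7 MHC class II genes, 24 genes of glycolysis and HIF-1 targets, 17 phagocytic and scavenger receptors or 10 metallothionein and metal genes was 2-fold different.

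Of 288 genes whose symbol starts with Zfp, 5 were higher and 1 lower, with a median difference of 0.07, where 3.27% of all genes compared were higher and 1.4% lower. The probes that could not be named held an increase of up to 4.99 on the log2 scale among those measured on both arrays.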
